A study of Mus musculus with 4 samples.

Results

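The genes described here are the abundant annotated pseudogenes of mouse tibialis anterior (TA) muscle. They were chosen by level: every gene whose annotated type is a kind of pseudogene and whose mean over the 4 libraries was at least 5 TPM (an abundance per transcript length whose total is the same in every library). This gave 150 of 13754 annotated pseudogenes in a table of 57180 genes, of which 134 were processed and 16 unprocessed. Their mean levels ran from 5.10 to 37500 TPM, with a median of 24.8 TPM. Because the level chose them, their levels are given as a description. These 150 genes held 99.2% and 99.1% of all pseudogene TPM in the Exercise libraries, against 99.6% and 99.4% in the Control libraries.

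RNA was sequenced from whole TA muscle of C57BL/6J mice, male according to the methods, in 2 groups of 2 libraries. Exercise mice were 3 weeks old at the start, were familiarized with the treadmill for 5 days and then ran for 4 weeks, 5 days per week and 45 min per day, at 12 m/min, and Control mice were sedentary and age-matched. All mice were 8 weeks old at collection. No transgene, drug or other agent is named for either group, and the texts used here do not say whether a library is 1 mouse or a pool, and the p-values thus measure a spread between libraries that may be technical.

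Several measurements of the whole table bear on every comparison below. Of the 13288 genes that reached 1 TPM in no fewer than 2 libraries, 7344 were higher and 822 lower with Exercise (limma on log2(TPM + 1), Benjamini-Hochberg adjusted p under 0.05), which is 55.3% and 6.19%. Over the tested genes the log2 fold change had a median of 0.53, and scaling the libraries by the median of ratios moved it to 0.02, so the changes below are set beside these medians. All 10 skeletal muscle markers were present, at summed levels of 91780 and 74710 TPM in Exercise against 118600 and 129100 TPM in Control, and 6 of them fell. The 8 adipocyte markers summed to 325.1 and 1042 TPM in Exercise against 4036 and 6286 TPM in Control, 6 of 7 tested fell, and none was at 0 in all libraries. Car3 made up most of the Control sums, at 3667.48 and 5539.22 TPM there, and averaged 392.1 TPM in Exercise. Fabp4 (mean 284.8 TPM in Exercise against 391.0 TPM in Control) was not called. The highest of the remaining adipocyte markers, Cfd, averaged 4.52 TPM in Exercise against 106.6 TPM in Control. The 4 smooth muscle markers summed to 797 and 923 TPM in Exercise against 303 and 347 TPM in Control, and 2 of 3 tested, Acta2 and Tagln, rose. Acta2 made up most of that sum, at 754 and 871 TPM in Exercise against 269 and 323 TPM in Control. Myh11 (mean 2.04 TPM in Exercise against 3.1 TPM in Control, not called) and Cnn1 (0.30 against 1.07 TPM, not tested) did not rise. Xist, the transcript of the inactive X chromosome, was listed at 0 and 0.07 TPM in Exercise and at 14.9 and 11.7 TPM in Control, whereas Y-linked Eif2s3y had 16.7 and 25.2 TPM in Exercise and 0.30 and 0 TPM in Control. The methods name male mice, but these 2 transcripts split along the groups, with Xist in the Control libraries and Eif2s3y in the Exercise libraries. Y-linked Ddx3y was lower in Control (10.04 and 12.06 TPM) than in Exercise (41.2 and 37.6 TPM) but not absent. Differences between the animals behind these libraries, sex among them, and the training thus cannot be told apart. The part of skeletal muscle, smooth muscle, fat or sex-linked signal in the results below was not tested, and in bulk muscle RNA fewer cells of a type and less RNA per cell cannot be told apart.

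A processed pseudogene arises when an mRNA is copied back into DNA and inserted elsewhere in the genome, so it lacks introns and its sequence starts out as that of the mature transcript. An unprocessed pseudogene arises by duplication of genomic DNA. Stretches of mitochondrial DNA that were inserted into a chromosome are also annotated as unprocessed pseudogenes. Genes with much mRNA in the germ line, such as those of ribosomal proteins and of the glycolytic enzyme Gapdh, have left many processed copies in mammalian genomes. A copy that is young has had little time to diverge, and a short sequencing read inside it then matches the copy and its source equally well.

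Most of the abundant pseudogenes were close copies of genes that are themselves transcribed. GENCODE vM21 transcripts (build GRCm38) were matched by Ensembl gene ID, and each pseudogene was aligned to the protein-coding and mitochondrial transcripts on the same strand. Of the 150 members, 133 (88.7%) matched a gene at no less than 95% identity over at least 90% of their length, 107 of these differed by at most 2 bases, and 67 (44.7%) were identical over their whole length. Among the 13363 other pseudogenes with a sequence, 24.8% matched and 1.26% were identical. The share of identical copies was 35.4% at a mean of 5 to under 50 TPM (34 of 96), 48.5% at 50 to under 500 TPM (16 of 33) and 81.0% at 500 TPM and over (17 of 21). Identity alone did not give a level: of 235 identical pseudogenes in the whole table, 139 were listed at 0 in every library. Of the 109 whose coding gene averaged under 1 TPM none reached 5 TPM, whereas 41 of the 59 whose coding gene averaged at least 100 TPM did. Some members, identical or not, matched genes at low levels, among them Vmn2r53 (mean 0.57 TPM), Gm42669 (1.03 TPM) and Or2y1 (1.23 TPM). How the authors' counting divided reads between a copy and its source is not given in the sources used here, so in every sentence below a level is that assigned to a copy, and RNA of the copy and RNA of its source cannot be told apart inside identical sequence.

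Mitochondrial copies on chromosome 1 held nearly all of the unprocessed signal. Gm29216, Gm28661, Gm10925, Gm28437, Gm28438 and Gm10222 lie side by side on the minus strand at chr1:24612407-24616197 (GRCm38), in the order that their sources have in mitochondrial DNA. They match mt-Co1, mt-Co2 and mt-Co3, subunits of cytochrome c oxidase, mt-Atp6, a subunit of ATP synthase, and mt-Nd3 and mt-Nd4l, subunits of complex I. Of the 6, 4 (Gm28661, Gm10925, Gm28437 and Gm10222) were identical to their source over 681, 678, 783 and 294 bases. The first 60 bases of Gm28661 (5′ to 3′, as all sequences here), shown because it was the most abundant pseudogene, are also the first 60 bases of mt-Co2:
Gm28661: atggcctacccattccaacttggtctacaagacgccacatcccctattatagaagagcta
The other two carried 1 substitution each. Gm28438 differed from mt-Nd3 by T3C and Gm29216 from the end of mt-Co1 by A13T (source base, position counted from the first base of the copy, copy base). The windows that hold these bases, in capitals, are shown because they are the bases by which a read could be assigned:
Gm28438: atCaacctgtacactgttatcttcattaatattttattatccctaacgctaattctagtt
mt-Nd3: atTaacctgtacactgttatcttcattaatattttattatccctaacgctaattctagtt
Gm29216: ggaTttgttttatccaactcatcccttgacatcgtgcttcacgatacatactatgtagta
mt-Co1: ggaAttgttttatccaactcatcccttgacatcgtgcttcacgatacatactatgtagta

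The 6 copies took 8.98% and 8.44% of all TPM in Exercise libraries against 12.1% and 9.77% in Control libraries, while the 13 protein genes of the mitochondrial genome took 19.5% and 17.3% against 23.7% and 20.6%. Shares of all 16 unprocessed members averaged 8.72 ± 0.384% in Exercise and 10.9 ± 1.62% in Control (SD, n = 2 each), and the groups did not overlap (exact permutation test, two-sided p = 0.333, the smallest that 2 against 2 libraries can give). Gm28661 had 35380 and 32542 TPM in Exercise and 45656 and 36418 TPM in Control. Its source mt-Co2 was listed at 1104 and 974 TPM in Exercise and 1148 and 1089 TPM in Control, so the copy held 97.0% and 97.1% of their joint level with Exercise and 97.5% and 97.1% in Control. Gm28437 likewise held 88.8% of the joint level with mt-Co3 in both Exercise libraries, against 91.9% and 91.1% in Control. In the other 4 pairs the copy held 17.8% to 57.8%, and Gm10222 held 30.3% and 34.4% of the pair with mt-Nd4l in Exercise against 30.1% and 28.1% in Control.

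**Figure D1:**
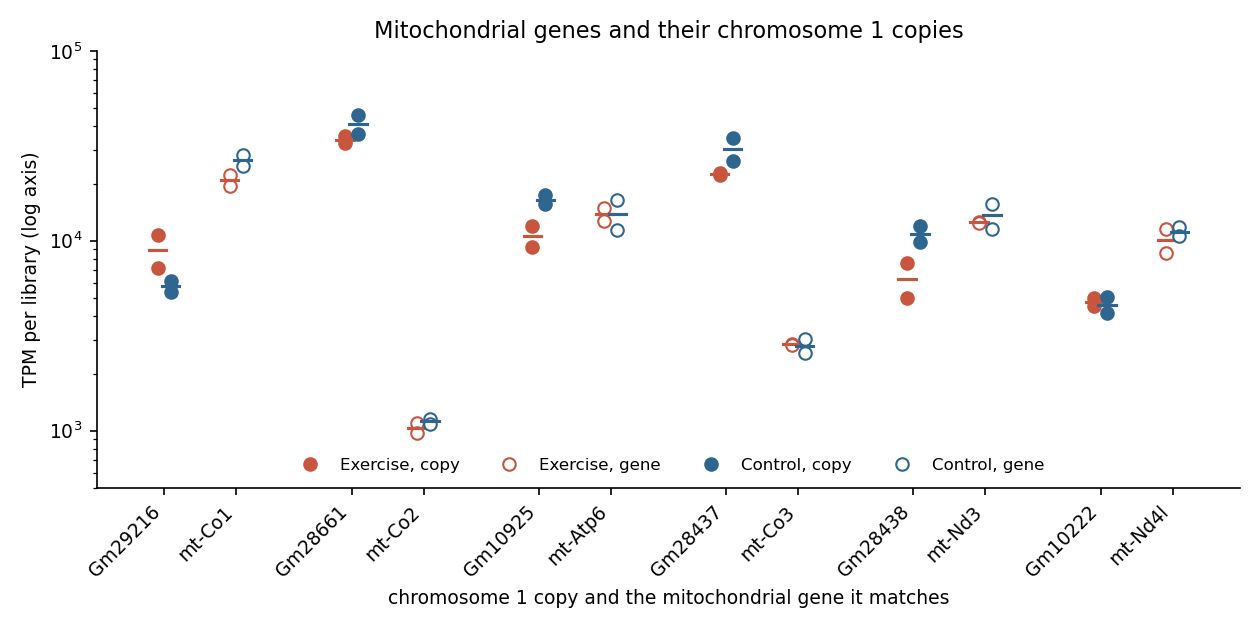
TPM per library (log axis) of the 6 chromosome 1 copies (filled points) and of the mitochondrial gene each matches (open points), Exercise left of Control, with the mean of 2 libraries as a bar. Gm28661 (32542 to 45656 TPM) and Gm28437 (22264 to 34556 TPM) lie above their sources mt-Co2 (974 to 1148 TPM) and mt-Co3 (2563 to 3051 TPM), and in the other pairs the levels are within about an order of magnitude.

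Of these 6 copies, 2 fell and 1 rose, where 6.19% of all tested genes were lower and 55.3% higher. Gm10925 had 11925 and 9283 TPM in Exercise against 17400 and 15563 TPM in Control (log2 fold change -0.65, SE 0.18, limma adjusted p = 0.0196), with no overlap. Gm28438 had 7638 and 5004 TPM in Exercise against 11918 and 9856 TPM in Control (-0.81, SE 0.23, adjusted p = 0.0218), again with no overlap. Gm29216 had 7171 and 10778 TPM in Exercise against 6145 and 5367 TPM in Control (0.61, SE 0.22, adjusted p = 0.0457). All 3 calls were lost without Exercise replicate 2 and without Control replicate 1. Those of Gm10925 and Gm29216 were also lost without Control replicate 2. Such fits leave 1 library in a group and have less power, and calls were lost there across all tested genes too. With the replicate block the adjusted p of Gm29216 was 0.0781, and with median-of-ratios scaling its log2 fold change was -0.01. None of the 13 mitochondrial protein genes passed (log2 fold changes -0.38 to 0.03), whereas with median-of-ratios scaling 7 of them and 3 of the 6 copies were lower. The ratio of copy to source did not pass for any of the 6 pairs (adjusted p 0.207 to 0.763 over all sequence pairs), the widest being Gm29216 to mt-Co1 at 0.96 (SE 0.38). When each copy was added to its source, none of the 6 sums passed (log2 fold changes -0.38 to -0.10). Gm28439, the next copy along the block and identical to mt-Nd4 over 876 bases, was listed at 0 in all 4 libraries, as were all 22 mitochondrial tRNA genes.

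Of the 14 abundant copies of Gapdh, which encodes the glycolytic enzyme glyceraldehyde-3-phosphate dehydrogenase, 7 fell, as Gapdh itself did, and their levels were lower with more differences from Gapdh, apart from Gm7336. Gapdh was the best match of 203 annotated pseudogenes, 57 of these passed the match limits, and 14 were abundant. Among the 53 of at least 900 bases, the 2 identical copies averaged 873 and 879 TPM, the 7 with 1 difference averaged 22.1 to 83.9 TPM, the 4 with 4 to 5 differences averaged 1.27 to 5.39 TPM, and the 31 with over 10 differences had a median of 0.352 TPM. Of the 3 copies with 2 to 3 differences, 2 averaged 10.04 and 10.42 TPM and the third, Gm7336, 815 TPM. Gm7336 is a longer copy whose 1 mismatch and 2 gapped bases lie outside an unbroken copy of the 1002-base coding sequence. The windows that follow set 3 copies of 1 difference beside Gapdh and, for the first, the identical copy Gm10359, and the capital is that base. It was C583T in Gm2606, G361A in Gm12070 and T757G in Gm14760, counted from the first base of the start codon.
Gm2606: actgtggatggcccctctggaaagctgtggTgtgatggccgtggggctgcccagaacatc
Gm10359: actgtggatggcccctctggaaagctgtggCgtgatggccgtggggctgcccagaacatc
Gapdh: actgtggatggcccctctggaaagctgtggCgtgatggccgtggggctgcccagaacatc
Gm12070: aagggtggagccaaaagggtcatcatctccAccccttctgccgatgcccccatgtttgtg
Gapdh: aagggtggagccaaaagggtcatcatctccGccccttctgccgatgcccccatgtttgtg
Gm14760: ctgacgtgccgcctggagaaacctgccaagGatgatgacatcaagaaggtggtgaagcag
Gapdh: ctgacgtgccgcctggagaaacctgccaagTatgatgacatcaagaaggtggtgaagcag

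Gm10359 (chromosome 5) had 569 and 518 TPM in Exercise against 1050 and 1378 TPM in Control (log2 fold change -1.15, SE 0.16, limma adjusted p = 0.00335). Its twin in sequence, Gm12671 (chromosome 4), had 522 and 542 TPM in Exercise against 1043 and 1384 TPM in Control (-1.17, SE 0.16). Gm7336 (chromosome 7) had 499 and 476 TPM in Exercise against 936 and 1349 TPM in Control (-1.20, SE 0.19). These 3 copies were thus within a narrow band of each other in every library. Copies with 1 base of difference were listed at lower levels in every library. Gm2606 had 59.3 and 56.8 TPM in Exercise against 90.51 and 129.03 TPM in Control (-0.89, SE 0.18, limma adjusted p 0.0617 without Exercise replicate 2), and X-linked Gm14760 had 42.3 and 35.3 TPM in Exercise against 97.9 and 157 TPM in Control (-1.66, SE 0.23). Gm12070 had 51.8 and 66.9 TPM in Exercise against 82.5 and 102 TPM in Control (-0.63, SE 0.17, adjusted p = 0.0206), a call that was lost without Control replicate 2 (0.0682) and without either Exercise library (0.139 and 0.0503).

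In all, 7 of the 14 Gapdh copies fell and none rose, against 6.19% lower and 55.3% higher among all tested genes. All 14 log2 fold changes were negative (median -0.58, range -1.66 to -0.09), though 1 to 3 of them were positive when a library was left out. The copies are close in sequence to the same source, so they are not 14 separate observations. The median stayed negative under every scaling tried (-1.19 with the median of ratios, -0.97 with quantile normalization and -0.70 after rescaling without mitochondrial genes). Gapdh had 6973 and 7441 TPM in Exercise against 9440 and 12102 TPM in Control (-0.57, SE 0.17, adjusted p = 0.0257), with no overlap, but it did not pass without Control replicate 2 (0.182) or without either Exercise library (0.101 and 0.0817), nor with quantile normalization (-0.13). Together the copies held 21.3% and 20.4% of the level of Gapdh and its copies in Exercise, against 27.1% and 28.2% in Control. No ratio of a Gapdh copy to Gapdh passed the adjusted test, with the lowest unadjusted p, 0.0469, for Gm14760 (-1.09, SE 0.38). Adding the 14 copies to Gapdh gave a fall of -0.70 (SE 0.17, adjusted p = 0.0109).

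**Figure D2:**
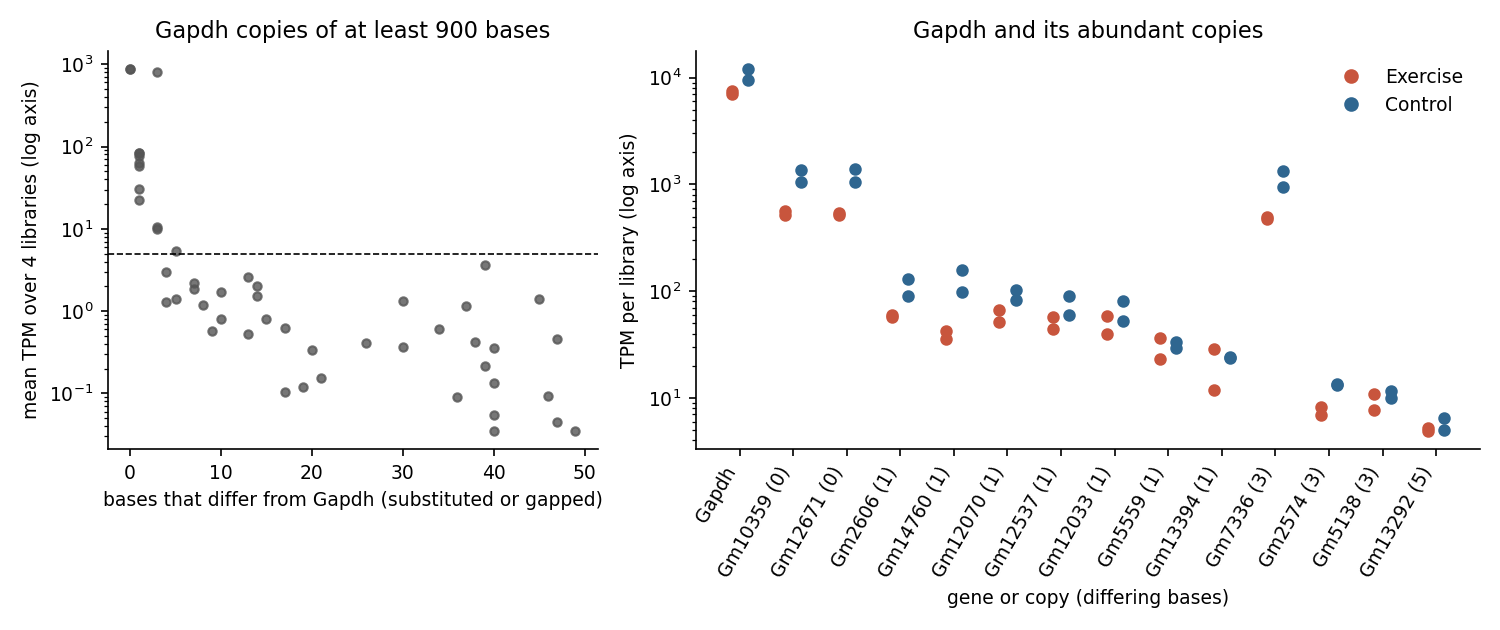
Left, mean TPM over 4 libraries (log axis) of the Gapdh copies of at least 900 bases by the number of bases that differ from Gapdh, with 3 copies at 0 not drawn and the dashed line at 5 TPM. Right, TPM per library of Gapdh and of its 13 abundant copies of that length, in order of their differences (in brackets), Exercise left of Control. The identical copies lie at 518 to 569 TPM in Exercise and 1043 to 1384 TPM in Control, copies with 1 difference at 11.9 to 157 TPM, and Gm7336 with 3 lies with the identical ones.

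Copies of cytosolic ribosomal protein genes numbered 38 members, which matched 27 ribosomal protein genes, 19 of them identically. Ribosomal proteins form the small (Rps) and large (Rpl) subunits that translate mRNA. These copies took 1.24% and 1.33% of all TPM in Exercise against 0.791% and 0.865% in Control. Their sum was 44.3% and 42.1% of the joint level with their 27 source genes in Exercise, and 46.9% and 47.8% in Control. Of the 38 copies, 8 exceeded their source in all 4 libraries. Gm10443, an uninterrupted 210-base copy of Rps28 on chromosome 6 and the most abundant of them, is shown whole:
Gm10443: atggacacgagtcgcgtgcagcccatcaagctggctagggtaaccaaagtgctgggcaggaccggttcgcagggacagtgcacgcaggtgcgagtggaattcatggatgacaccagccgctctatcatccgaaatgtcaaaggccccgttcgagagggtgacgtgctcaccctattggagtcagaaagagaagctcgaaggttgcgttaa

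Gm10443 had 1943 and 2063 TPM in Exercise against 1038 and 1355 TPM in Control (log2 fold change 0.76, SE 0.16, adjusted p = 0.00896), and Rps28 712 and 900 TPM against 397 and 391 TPM. Rps23-ps1 had 1354 and 1441 TPM in Exercise against 888 and 956 TPM in Control (0.60, SE 0.12), and Rps23 287 and 317 TPM against 164 and 180 TPM. Gm7536, an identical copy of Rpl27a, had 1264 and 1419 TPM in Exercise against 793 and 835 TPM in Control (0.72, SE 0.13), and Rpl27a 183 and 198 TPM against 101 and 115 TPM. In each of these pairs both genes rose. The copy held 73.2% and 69.6% of its pair in Exercise against 72.4% and 77.6% in Control for Gm10443, 82.5% and 82.0% against 84.4% and 84.1% for Rps23-ps1, and 87.4% and 87.7% against 88.7% and 87.9% for Gm7536. Rpl31-ps8 (1039 and 1145 TPM against 733 and 746 TPM, 0.56), Rpl36a-ps2 (1000 and 898 TPM against 617 and 643 TPM, 0.59) and Rps16-ps2 (366 and 447 TPM against 212 and 213 TPM, 0.93) rose too, as did their sources Rpl31, Rpl36a and Rps16 (0.92, 0.85 and 0.82). Without Exercise replicate 2 the calls of Gm10443, Rps23-ps1, Gm7536, Rpl31-ps8 and Rpl36a-ps2 were lost (limma adjusted p 0.0527 to 0.0935), and Rpl36a-ps2 also missed without Exercise replicate 1 (0.0701). Rps16 likewise missed without Exercise replicate 2 (0.0524).

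Of the 36 ribosomal protein copies tested, 17 rose (47.2%, against 55.3% of all tested genes) and 2 fell, with a median log2 fold change of 0.58 against 0.53 for all tested genes. Without Rpl39-ps and Rpl35a-ps6, which were listed at 0 in both Control libraries and passed the filter on low values through Exercise alone, 15 of 34 rose and the median was 0.565. All 27 source genes rose, with a median of 0.85, and of 84 cytosolic ribosomal protein genes tested 80 rose and 1 fell. With median-of-ratios scaling the median of the copies was -0.04 with 3 higher and 4 lower. That of the source genes was 0.23 with 4 higher, and that of all tested genes 0.02. With quantile normalization the median of the copies was 0.227 with 9 higher and 2 lower, against 0.08 for all tested genes. After rescaling without mitochondrial genes it was 0.454 with 15 higher and 2 lower, against 0.452. The median of the copies was thus negative with the median of ratios only. Of 36 copies paired with a tested source, 25 had a lower log2 fold change than the source. Rps3a2 and Rpl34-ps1 were among the others. Rps3a2, a copy of Rps3a1 with 4 substitutions, had 194 and 243 TPM in Exercise against 73.9 and 87.2 TPM in Control (1.42, SE 0.16), while Rps3a1 changed by 0.70. Rpl34-ps1, a copy of Rpl34 with T132C and C318G, had 229 and 280 TPM in Exercise against 89.3 and 116 TPM in Control (1.31, SE 0.17), while Rpl34 changed by 0.67. Both copies also passed under median-of-ratios scaling (0.81 and 0.69) and in every fit that left out a library, but the ratio of copy to source did not pass for either (adjusted p = 0.378 for both over all sequence pairs). The windows around T132C, in capitals, show the base that separates that pair:
Rpl34-ps1: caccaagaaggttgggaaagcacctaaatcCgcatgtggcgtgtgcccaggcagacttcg
Rpl34: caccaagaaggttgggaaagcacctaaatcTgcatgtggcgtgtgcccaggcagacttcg

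The ribosomal protein copies that fell were Gm9794 and Gm12918. Gm9794, 1 base from Rpl23, had 7.36 and 5.93 TPM in Exercise against 26.5 and 14.9 TPM in Control (-1.46, SE 0.27, adjusted p = 0.00577). Gm12918, identical to Rpl13, had 4.46 and 0 TPM in Exercise against 22.6 and 49.4 TPM in Control (-3.88, SE 0.76, adjusted p = 0.00681). Their sources rose, with Rpl23 at 735 and 803 TPM in Exercise against 392 and 443 TPM in Control and Rpl13 at 684 and 817 TPM against 412 and 354 TPM.

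Of the copies with the same sequence as each other, those of Rpl27 divided their joint level unevenly. Rpl27-ps3 (chromosome 18) and Gm11518 (chromosome 11) are both identical to Rpl27 over 411 bases. Rpl27-ps3 had 220 and 919 TPM in Exercise against 367 and 580 TPM in Control, and Gm11518 had 935 and 267 TPM in Exercise against 367 and 179 TPM in Control. Each copy alone overlapped between groups and neither passed the test (log2 fold changes -0.04 and 0.96, adjusted p = 0.961 and 0.192). Their sum was 1155 and 1186 TPM in Exercise against 735 and 759 TPM in Control, averaging 1171 ± 22.4 and 746.9 ± 17.5 TPM (SD, n = 2 each), with no overlap (exact permutation p = 0.333, the smallest possible). Rpl27 itself had 364 and 406 TPM in Exercise against 193 and 210 TPM in Control and rose (0.93). Gm11518 passed with the replicate block (adjusted p = 0.0174) and without Exercise replicate 2 (0.0386), and Rpl27-ps3 ranged from -1.07 to 0.99 when single libraries were left out.

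**Figure D3:**
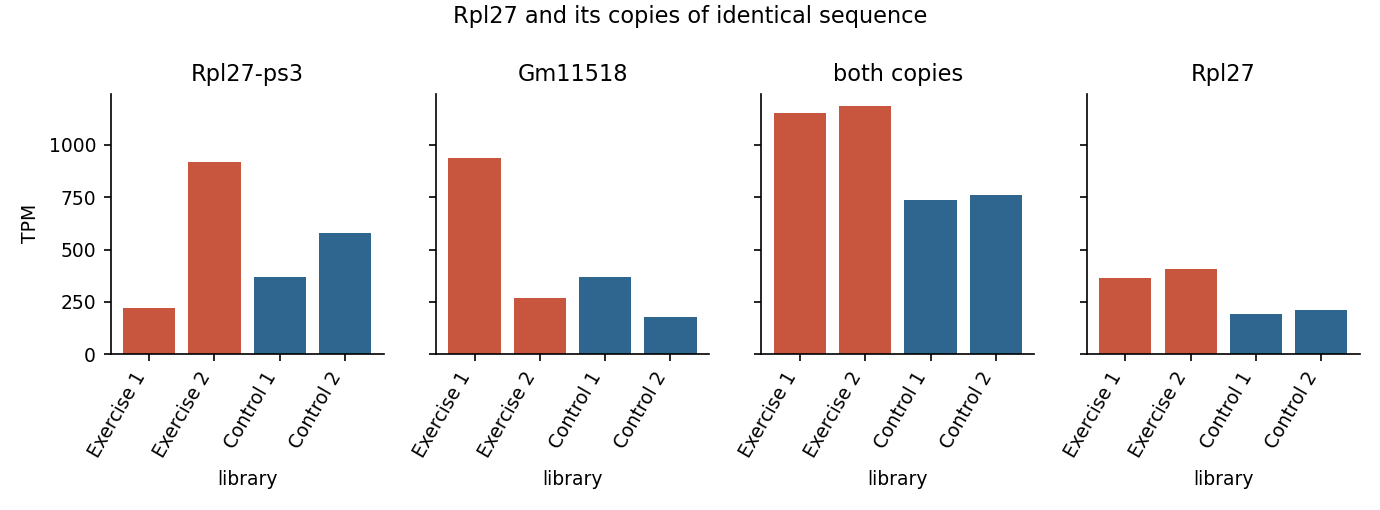
TPM per library of the 2 copies with the sequence of Rpl27, of their sum and of Rpl27, Exercise libraries left of Control libraries. The single copies trade places between libraries (220 to 935 TPM in Exercise), while their sum is 1155 and 1186 TPM in Exercise and 735 and 759 TPM in Control.

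The other groups of equal sequence differed in how they were divided. The Gapdh copies Gm10359 and Gm12671 had nearly equal levels in every library, as given above. Gm14536 and Gm15027 on the X chromosome, both identical to a 138-base stretch of the deubiquitinase gene Usp9x, were listed at the same value in each library (13.3 and 0.62 TPM in Exercise against 0 and 7.20 TPM in Control). Rpl35a-ps2, Rpl35a-ps3 and Rpl35a-ps6, 1 base from Rpl35a, summed to 147 and 2.71 TPM in Exercise against 0 and 0.83 TPM in Control, so that Exercise replicate 1 alone made these 3 genes abundant. Rpl35a-ps6 had 57.5 and 2.71 TPM in Exercise and was listed at 0 in both Control libraries. It passed the filter on low values only through the Exercise libraries, so its difference is given as a description.

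A further 75 members matched 69 other genes, 42 of them identically, and 11 exceeded their source in all libraries. Tpt1-ps3, a copy of Tpt1, which encodes translationally controlled tumor protein, was the most abundant processed pseudogene, at 1791 and 2022 TPM in Exercise against 1327 and 1572 TPM in Control (0.40, SE 0.15, adjusted p = 0.0518), and Tpt1 had 2963 and 3246 TPM against 2196 and 2235 TPM. Gm10123, identical to Ppia over 490 bases, had 1026 and 1111 TPM in Exercise against 473 and 562 TPM in Control (1.05, SE 0.14, adjusted p = 0.00306). Ppia, the gene of the prolyl isomerase cyclophilin A, had 542 and 598 TPM in Exercise against 229 and 283 TPM in Control (1.16), and the copy held 65.4% and 65.0% of the pair against 67.4% and 66.6%. Gm12338, identical to the cytochrome c oxidase subunit gene Cox7c over 192 bases, had 1291 and 1121 TPM in Exercise against 1070 and 1189 TPM in Control (0.09, adjusted p = 0.573), with overlap, and Cox7c had 1482 and 1617 TPM against 1447 and 1419 TPM. Ndufb4c, an identical copy of the complex I subunit gene Ndufb4, had 481 and 468 TPM in Exercise against 568 and 504 TPM in Control (-0.18, adjusted p = 0.253), and Ndufb4 53.7 and 68.0 TPM against 58.1 and 47.9 TPM.

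Among these copies 18 of 69 tested (17 of 68 without Gm48789, listed at 0 in both Control libraries) rose (26.1%, against 55.3% of all tested genes) and 3 fell (4.35%, against 6.19%), and their median log2 fold change was 0.42, against 0.60 for their source genes and 0.53 for all tested genes. With median-of-ratios scaling the medians were -0.17 for the copies and 0.05 for the sources. Gm6565, identical to the ubiquitin-conjugating enzyme variant gene Ube2v2, had 68.1 and 74.2 TPM in Exercise against 37.8 and 35.3 TPM in Control (0.94, SE 0.13, adjusted p = 0.00306). Gm7334, identical to the antiproliferative gene Btg3, had 11.4 and 14.7 TPM in Exercise against 3.81 and 3.23 TPM in Control (1.63, SE 0.18), and Gm13597, identical to Tax1bp3, had 19.8 and 11.2 TPM against 1.08 and 5.64 TPM (2.10, SE 0.53), a call lost without Exercise replicate 1 (limma adjusted p 0.0676). Pin4-ps went the other way from Pin4, a prolyl isomerase: the copy had 5.96 and 17.1 TPM in Exercise against 26.9 and 26.2 TPM in Control (-1.30, SE 0.40), and Pin4 had 125 and 119 TPM against 68.1 and 76.8 TPM. Its fall did not pass without either Control library (0.0828 and 0.0712) or without Exercise replicate 1 (0.0536).

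Mrpl23-ps1 is identical over 93.1% of its 580 bases to Mrpl23, which encodes a protein of the large subunit of the mitochondrial ribosome, and its ratio to the source had the lowest adjusted p among the pairs by name. The copy had 124 and 131 TPM in Exercise against 121 and 115 TPM in Control (0.11, SE 0.12, adjusted p = 0.452), while Mrpl23 had 6.47 and 7.79 TPM in Exercise against 3.82 and 3.62 TPM in Control and rose (0.78, SE 0.16, limma adjusted p 0.0643 without Exercise replicate 2). Their ratio fell by 0.67 on the log2 scale (SE 0.07, limma adjusted p = 0.0192 over the 51 pairs formed by name), though it did not pass among the pairs formed by sequence (adjusted p = 0.0803). With median-of-ratios scaling the copy itself was lower (-0.51, adjusted p = 0.0209).

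Mid1-ps1, an unprocessed copy of the ubiquitin ligase gene Mid1 with 5 substitutions over 91.5% of its length, was the 1 member on the Y chromosome. It had 13.4 and 15.3 TPM in Exercise against 4.66 and 5.76 TPM in Control (1.31, SE 0.16, adjusted p = 0.00291), and Mid1 had 16.9 and 20.5 TPM against 6.42 and 8.48 TPM. Y-linked Ddx3y (41.2 and 37.6 TPM in Exercise, 10.04 and 12.06 TPM in Control), Uty (11.6 and 11.1 TPM against 3.75 and 4.03 TPM) and Kdm5d (7.45 and 8.50 TPM against 1.81 and 2.67 TPM) were higher in the same libraries, and the part of the animals' Y-linked signal in the change of Mid1-ps1 was not tested. Of the 8 members on the X chromosome, 1 rose and 1 fell (12.5% each, against 55.3% and 6.19% of all tested genes). The third unprocessed member that rose, Gm26712, overlaps an exon of Pyurf on the same strand in the GRCm38 annotation. Its match is thus a gene at its own position rather than a source elsewhere. It had 10.1 and 21.6 TPM in Exercise against 0 and 2.12 TPM in Control (3.16, SE 0.56). Gm26712 is nonetheless counted with the copies of other genes, in the sequence pairs and in the sums with source genes. Gm49274, an unprocessed member like the pheromone receptor gene Vmn2r53, had 11.4 and 8.79 TPM in Exercise against 7.99 and 20.7 TPM in Control, with overlap.

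For 17 members no coding gene passed the match limits. Of the 15 tested, 5 rose (33.3%, against 55.3% of all tested genes) and none fell (against 6.19%). Their median log2 fold change was 0.18, against 0.53 for all tested genes. Gm12439, whose best hit was the corepressor gene Ncor1 at 88.0% identity over 49.6% of its length, had 67.0 and 57.7 TPM in Exercise against 32.3 and 44.5 TPM in Control (0.70, SE 0.18, adjusted p = 0.0166), a call lost without either Exercise library (0.0994 and 0.0633). With median-of-ratios scaling none of the 15 was higher and 1 was lower. In the GRCm38 annotation 98 of the 150 members lie between genes, and 14 lie in an intron or overlap an exon of another gene on the same strand. For these 14, reads of the host gene cannot be told apart from reads of the member by position.

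Short members varied most between libraries of a group. Of the 30 members under 250 bases, 22 were listed at 0 in at least 1 library and 24 differed by more than 1 on the log2(TPM + 1) scale between libraries of the same group, with a median of the larger within-group gap of 4.37. Of the 120 longer members 9 were listed at 0 in a library and 35 differed by more than 1, with a median gap of 0.56. Among the 8463 other genes that averaged 5 TPM or more the median gap was 0.24 and 1.93% differed by more than 1. In all, 31 members were listed at 0 in at least 1 library, 9 were above 0 in a single library, and 2 were at 0 in both Exercise libraries against 10 in both Control libraries. Gm47441 (117 bases) was listed at 194 TPM in Exercise replicate 2 and at 0 in the other 3 libraries, and the transcribed unprocessed pseudogene Gm20257, whose symbol a lncRNA shares, at 27.9 TPM in Exercise replicate 2 alone.

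**Figure D4:**
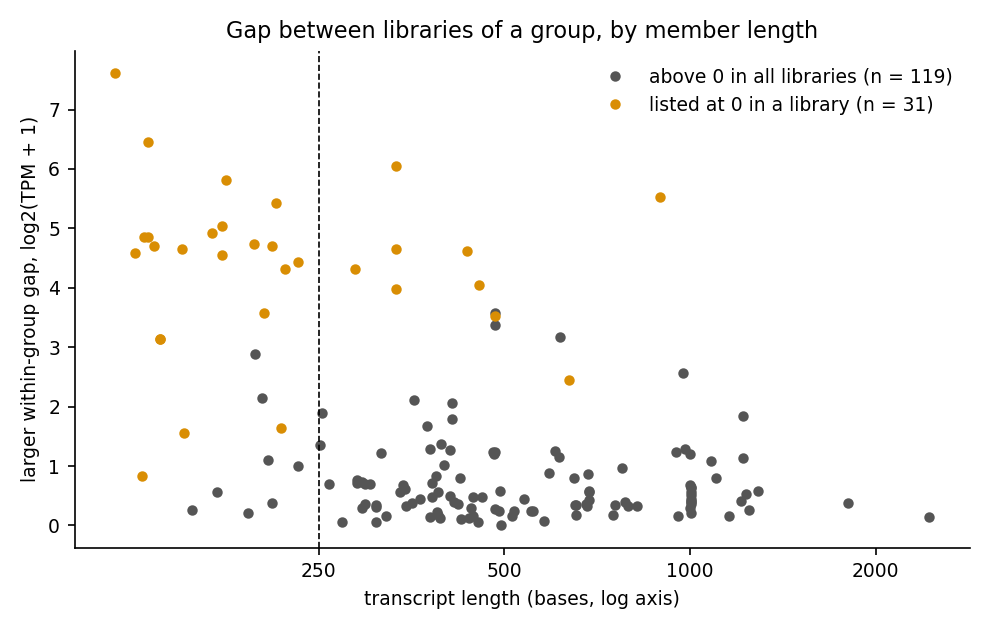
Each point is 1 of the 150 members, by transcript length (log axis) and by the larger of its 2 within-group gaps between libraries on the log2(TPM + 1) scale, with members listed at 0 in a library in orange and the dashed line at 250 bases. Members under 250 bases reach gaps above 4, with a median of 4.37, and longer members have a median of 0.56.

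Short members were also among those listed in a single group. Gm48789 had 87.5 and 156 TPM in Exercise and Rpl39-ps 29.2 and 87.2 TPM in Exercise, and both were listed at 0 in both Control libraries. They passed the filter on low values only through Exercise, so neither a fold nor a test of their own levels is given. Their rises and ratio calls in the counts below are set by the pseudocount and are no support for a change. Rpl39, the source of the second, had 534 and 638 TPM in Exercise against 267 and 295 TPM in Control. The sequence of Gm48789 is shown because its match is not a single parent gene: besides Rab33b, from which it differs by C96T and A124T (capitals), it was at least 80% identical over at least 80% of its length to transcripts of 203 coding genes, and as background it reads as a mouse B2 interspersed repeat. It lies in an intron of Tmod3 on the same strand (GRCm38).
Gm48789: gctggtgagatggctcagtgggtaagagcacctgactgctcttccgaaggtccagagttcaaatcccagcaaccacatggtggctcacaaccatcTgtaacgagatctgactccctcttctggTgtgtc

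Across the whole set, 140 of the 150 members passed the filter on low values, and 41 rose and 14 fell. Of 127 processed members tested, 38 (29.9%) rose and 12 (9.45%) fell, against 55.3% and 6.19% of all tested genes. Of 13 unprocessed members tested, 3 (23.1%) rose and 2 (15.4%) fell. The median log2 fold change was 0.32 for processed and 0.36 for unprocessed members, against 0.53 for all tested genes. The split turned with the scaling: with the median of ratios 6 processed members rose and 26 fell, against 10.9% and 16.2% of all tested genes, and 2 unprocessed members rose and 3 fell. Without Exercise replicate 2, 18 processed members rose and 17 fell. The libraries of the groups did not overlap for 57 members that were higher and 24 that were lower with Exercise, where 72.8% of all tested genes lay higher and 10.5% lower without overlap. The 119 members above 0 in all libraries gave 37 rises and 13 falls. Without Gm48789, Rpl39-ps and Rpl35a-ps6, whose Control libraries were at 0, 35 of 124 processed members rose and 12 fell.

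The test of a copy against its source asks whether the copy changed by another amount. Of 32 pairs of an abundant copy and the parent in its name, 1 ratio was called lower (Mrpl23-ps1 to Mrpl23) and 1 higher, that of Rpl39-ps to Rpl39, which is set by the pseudocount because the copy was listed at 0 in both Control libraries. Both directions came to 1.96% of the 51 pairs fitted, and 9 of the 32 had an unadjusted p under 0.05. Of 123 pairs by sequence, none was called lower and 1 higher, that of Gm48789 to Rab33b, which is likewise set by the pseudocount and has no single source. Of the 230 pairs fitted, 0.87% were called lower and 0.435% higher. Among the 123 pairs, 14 had an unadjusted p under 0.05. The absolute difference between copy and source had a median of 0.43 on the log2 scale, 68 of the 123 pairs differed by less than 0.5, and the median SE of a ratio was 0.36. The copy changed in the same direction as its source in 92 pairs, and in 75 the copy had the lower log2 fold change. Of all 13288 tested genes 11040 had a positive log2 fold change, as did 95 of the 102 tested source genes. The shared direction in 92 pairs thus cannot be told apart from the shift of the whole table. Over all 123 pairs the log2 fold changes of copy and source had a Pearson r of 0.32 and a Spearman rho of 0.46, over the 104 pairs with a copy above 0 in all libraries 0.57 and 0.55, over 36 pairs of ribosomal protein genes 0.09 and -0.03, and over 67 pairs of other genes 0.20 and 0.35, as a description over pairs that share the same 4 libraries and in several cases, such as Gapdh, the same source.

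**Figure D5:**
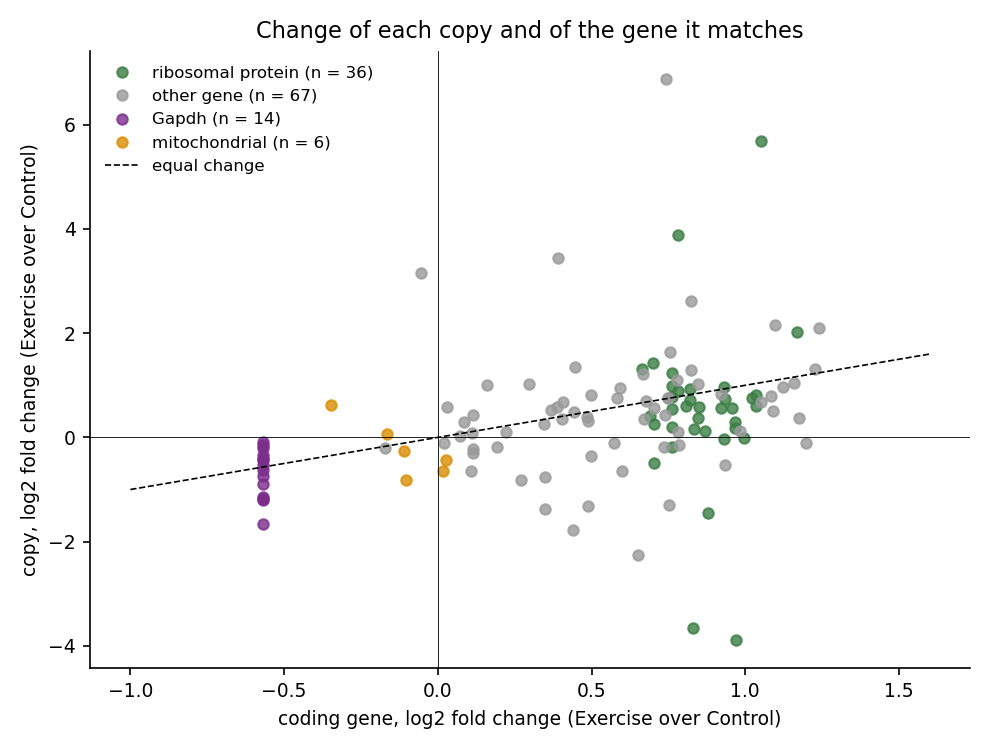
Log2 fold change (Exercise over Control) of each copy against that of the coding or mitochondrial gene it matches, 123 pairs in 4 families, with the line of equal change. Gapdh copies lie in a column at the Gapdh value of -0.57, ribosomal protein sources lie between 0.67 and 1.17, and the points farthest from the line, Gm48789, Gm12918 and Rpl39-ps, are copies listed at 0 in a library.

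Calls on the source genes changed when the copies were added. Of the 102 source genes tested as deposited, 77 rose (75.5%) and 1 fell, against 55.3% and 6.19% of all tested genes. With the members added 69 of 103 rose and 1 fell. With median-of-ratios scaling 16 source genes were higher and 13 lower without the members, where 10.9% of all tested genes were higher and 16.2% lower. Under the same scaling 12 of 103 sums were higher and 18 lower, shares close to those of all tested genes. With TPM as deposited, 10 of the 102 sources lost their call when members were added, among them Mrpl23, Rpl5, Sumo2 and Srp9. Another 2, Pyurf and Gm42669, gained a call. The direction of change turned in 10 of the 102. In 21 of the 103 families the copies held over 50% of the joint level in every library. Rpl5 was among the sources that lost their call: its identical copy Gm15500 had 45.3 and 0 TPM in Exercise against 93.6 and 76.5 TPM in Control. Alone Rpl5 changed by 0.83 (SE 0.14, limma adjusted p = 0.00468), and with the copy added by -0.57 (SE 0.21, limma adjusted p = 0.0513).

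At the threshold of 5 TPM, Gm48216, Gm48348 and Zrsr2-ps1 lay just inside with means of 5.10, 5.15 and 5.15 TPM, and Gm48415, Gm4739 and Gm12276 just outside with 4.96, 4.92 and 4.87 TPM. The 215 tested pseudogenes below it gave 64 rises (29.8%) and 23 falls (10.7%), with a median log2 fold change of 0.34, against 29.3% and 14 of 140 of the members and their median of 0.34.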

How the data were processed

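RNA from TA muscle of 2 Exercise and 2 Control libraries was analysed. The authors deposited TPM per gene, scaled to a fixed total, so depth is unknown and precision is that of 2 libraries per group. According to the submitters' processing notes, HISAT2, StringTie and fastp were used with GRCm39, without versions given, the labels a stranded Illumina kit, and the methods a NEBNext kit, SeqPrep, Sickle and DEGseq. How reads with several matches were counted is not given in the sources used here, and DEGseq was not used because it needs counts.

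Genes that reached 1 TPM in no fewer than 2 libraries were fitted as log2(TPM + 1) with limma 3.58.1 (trend, R 4.3.3), Exercise minus Control, and fold changes are on this scale, which understates those of low genes. The script was tested on simulated data. Copies were aligned with blastn 2.17.0 to GENCODE vM21 transcripts (GRCm38, matched by gene ID to the table), with a match at no less than 95% identity over 90% of the copy and 50% of the alignment in coding sequence. Copy-to-source log ratios were fitted over all pairs tested. Python 3.11.15, pandas 2.3.3 and scipy 1.17.1 made the tables.

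Alternatives were another pseudocount, no filter, 3 other scalings, no trend, a fold threshold, the replicate block and each library left out. Sequence pairs, summed families and members above 0 throughout or in both groups were added after seeing the data. Members and lists were chosen with earlier results of these data known. Named genes are the 10 highest members per class, the 5 largest called changes each way without overlap, the 5 highest mitochondrial genes and ribosomal protein copies with parents, called ratios, and those at the threshold. Any other gene named was chosen after its values were seen.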

Additional observations from a re-analysis of the deposited data

How the results depend on the processing

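The depth is unknown and the fixed total of TPM ties each gene to all others. The counts of processed members that were higher and lower (38 and 12) became 6 and 26 with median-of-ratios scaling, 14 and 20 with quantile normalization and 21 and 5 without the filter on low values, and ranged over 18 to 46 and 10 to 17 when single libraries were left out. Those of unprocessed members (3 and 2) became 1 and 0 without the filter, had 0 lower under quantile normalization, and ranged over 2 to 3 and 0 to 2 when single libraries were left out. After rescaling without mitochondrial genes they were 1 and 0. That fit also leaves out the unprocessed members with no parent named, so it tests only 1 unprocessed member. The copy-to-parent counts (1 and 1) were 0 and 0 without the filter, without the trend and with the replicate block, the fall was lost (0) with quantile normalization and with sequence pairs, and leaving out single libraries gave 0 to 2 and 0 to 3. Of all tested genes (7344 and 822), 1452 and 2152 passed with median-of-ratios scaling, 2178 and 1749 with quantile normalization, 4513 and 456 without the filter, and 2622 to 7039 and 410 to 814 without single libraries. The difference in TPM share of the unprocessed members (-2.21 percentage points) was 0.0012 after rescaling without the mitochondrial genes and copies. That value is set in advance, because the rescaling removes the members that make up nearly all of the share. The cause of these shifts was not tested, beyond the fewer or more genes that each fit holds.

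Directions turned with median-of-ratios scaling for Gm10222 (-0.57), Gm12338 (-0.53), Gm29216 (-0.0083), Mrpl23-ps1 (-0.51), Rpl31-ps8 (-0.0616), Rpl36a-ps2 (-0.0325), Rps23-ps1 (-0.0225), Tpt1-ps3 (-0.22) and mt-Atp6 (-0.605), and with quantile normalization for Gm12338 (-0.19), Mrpl23-ps1 (-0.24), mt-Co1 (0.14) and mt-Nd1 (0.0714). After rescaling without mitochondrial genes they turned for Gm12338 (-0.0332) and Mrpl23-ps1 (-0.0185). Leaving out single libraries gave -0.0878 to 0.20 for Gm10222, -0.0086 to 0.19 for Gm12338, -0.98 to 0.29 for Gm49274, -1.07 to 0.99 for Rpl27-ps3, -0.46 to 0.11 for Zrsr2-ps1 and -0.24 to 0.28 for mt-Atp6.

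The libraries of both groups carry the numbers 1 and 2, but nothing in the labels ties them, and the deviations of same-numbered libraries correlated at -0.0487 across genes. With the replicate block 47 processed members were higher and 16 lower, and 7400 of all tested genes were higher and 830 lower.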
